A study of Mus musculus with 17 samples.

Results

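Skeletal muscle transcripts were followed in whole MCA205 tumours through 39 mouse genes that encode sarcomere proteins, calcium-handling proteins, muscle metabolic enzymes and 2 muscle transcription factors. The genes were chosen by symbol, and every array probe annotated with one of the 39 symbols was taken. Of the 39 genes, 37 had a probe on the array (Myh2 and Cacna1s had none), and together they had 74 of the 45281 probes. By fibre type and role the list held 12 genes of fast fibres, 7 of slow fibres, 9 of the thin filament, titin filament and Z-disc shared by both, 3 of calcium release, 6 of metabolism and 2 factors.

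MCA205 is a transplantable fibrosarcoma line, here growing in wild-type C57BL/6 mice. Palpable tumours received an injection into the tumour of doxorubicin (DX, an anthracycline that damages DNA) or of phosphate-buffered saline (PBS), and total RNA of the bulk tumour was labelled for 1 Illumina BeadChip array per sample. The 17 arrays form 6 groups: PBS on day 2 (n = 3), DX on day 2 (n = 2), PBS on day 7 (n = 3), DX non-responders on day 7 (n = 3), DX responders on day 7 (n = 3) and DX responders on day 10 (n = 3). Responders and non-responders of day 7 all received DX and were separated afterwards by whether the tumour shrank. No PBS tumours of day 10 were analysed here, and neither the age of the mice nor whether each sample is 1 animal is given by the labels, so p-values measure the spread between these samples, which may be partly technical.

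In a sarcomere, myosin thick filaments pull on actin thin filaments, and calcium released from the sarcoplasmic reticulum opens the thin filament through troponin. Fast and slow fibres build the same machine from different paralogues of myosin heavy and light chains, troponins, myosin binding protein C and the calcium pump. A fibrosarcoma is a tumour of fibroblast-like cells and is not known for making mature sarcomeres.

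A probe was counted as detected on an array when its detection p-value was under 0.01, and was tested when it was detected on at least 2 arrays. Of the 74 probes 43 met this, and they represented 30 of the 39 genes: 11 of 12 fast, 3 of 7 slow, 8 of 9 filament and Z-disc, 1 of 3 calcium release, 6 of 6 metabolism and 1 of 2 factors. A gene high on only a pair of arrays enters through those arrays, so counts over the 30 describe them and support nothing further. Levels are normalized log2 signals, in which an undetected probe lies at about 4.2 to 5.4, and levels of different probes cannot be set against each other.

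Of the genes left out, 7 had a probe but were not detected on any array. They are the slow myosin heavy chain Myh7 (3 probes), the slow or cardiac myosin light chains Myl2 and Myl3, the slow troponin I Tnni1, the thin filament ruler nebulin (Neb), the calcium store protein Casq1 and the master factor of the muscle lineage Myod1. The slow troponin C Tnnc1, the slow troponin T Tnnt1 and the slow myosin binding protein Mybpc1 were thus the slow genes that could be followed. Myog, which drives the differentiation of myoblasts, was barely measured: its probe with the higher mean signal was detected on day 7 PBS replicate 2 and day 10 responder replicate 1, and its second probe on day 2 PBS replicate 1 and day 7 responder replicate 3, so no array was positive with both. None of the 6 heart muscle markers with a probe (of Myh6, Nppa, Myl7, Tnni3, Tnnt2, Ryr2 and Pln) was detected on 2 arrays.

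Promoters of 4 genes are shown because the results below turn on them. Myh4 (myosin IIB) and Myh1 (myosin IIX) are fast myosin heavy chain genes of one cluster whose levels differed in opposite directions between the 2 tumours richest in muscle signal, Acta1 (skeletal alpha-actin) was detected on 14 arrays, and the slow Tnnc1 came nearest to the threshold of the test. Each sequence runs from 250 bases before to 50 after the RefSeq start, 5′ to 3′ on the gene's strand, in build GRCm38.p6. Capitals mark matches, on either strand, to CAGCTG (the E-box core read by the myogenic factors), the MEF2 site, the CArG box (read by serum response factor) and TATAAA. Myh4 lies at chr11:67237562-67237861 on the plus strand, Myh1 at chr11:67199852-67200151 on the plus strand, Acta1 at chr8:123894726-123895025 on the minus strand and Tnnc1 at chr14:31208062-31208361 on the plus strand.
Myh4: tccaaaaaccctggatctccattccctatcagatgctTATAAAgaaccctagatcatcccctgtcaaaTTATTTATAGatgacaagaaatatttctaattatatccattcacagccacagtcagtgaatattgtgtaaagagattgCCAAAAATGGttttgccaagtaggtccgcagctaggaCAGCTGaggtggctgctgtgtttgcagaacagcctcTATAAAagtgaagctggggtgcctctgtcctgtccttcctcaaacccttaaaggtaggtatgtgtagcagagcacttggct
Myh1: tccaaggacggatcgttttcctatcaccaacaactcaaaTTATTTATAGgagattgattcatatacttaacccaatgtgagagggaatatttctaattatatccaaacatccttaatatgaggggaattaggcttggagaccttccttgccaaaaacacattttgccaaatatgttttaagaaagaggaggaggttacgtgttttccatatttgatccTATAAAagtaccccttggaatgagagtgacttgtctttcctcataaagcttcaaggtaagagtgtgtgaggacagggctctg
Acta1: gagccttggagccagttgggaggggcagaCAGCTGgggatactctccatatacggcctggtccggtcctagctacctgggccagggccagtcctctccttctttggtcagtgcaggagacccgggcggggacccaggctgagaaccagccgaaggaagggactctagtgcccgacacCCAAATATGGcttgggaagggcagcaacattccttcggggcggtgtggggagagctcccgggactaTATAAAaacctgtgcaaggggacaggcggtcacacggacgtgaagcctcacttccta
Tnnc1: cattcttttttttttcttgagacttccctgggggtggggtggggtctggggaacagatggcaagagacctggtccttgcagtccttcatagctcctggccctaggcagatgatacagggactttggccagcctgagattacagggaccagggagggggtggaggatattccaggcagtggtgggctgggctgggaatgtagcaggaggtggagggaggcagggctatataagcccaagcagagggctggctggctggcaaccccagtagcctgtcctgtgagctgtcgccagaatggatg
The Myh4 window held CAGCTG, a CArG box, a MEF2 match and 3 matches to TATAAA, 1 of which lies inside the MEF2 match. Myh1 held a MEF2 match and 2 matches to TATAAA, 1 of them again inside the MEF2 match, and neither CAGCTG nor a CArG box. Acta1 held CAGCTG, a CArG box and TATAAA, and Tnnc1 held none of these 4. Of the 39 genes 30 had a promoter in the RefSeq table. A match to CAGCTG occurred in 16 of those 30 (53.3%) against 18.3% of the 27025 genes in the table, the MEF2 site in 5 (16.7%) against 3.70%, the CArG box in 4 (13.3%) against 1.81%, and TATAAA in 7 (23.3%) against 15.7%. The wider E-box CANNTG, which includes CAGCTG, occurred in 26 (86.7%) against 75%. These are matches of letters in a window of 300 bases and not measured binding sites.

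Muscle signal was concentrated in 2 tumours, called the bright arrays below. Day 7 responder replicate 3 and day 10 responder replicate 3 each had 29 of the 30 genes detected, and on both the signal of 29 of 30 genes lay above all of the other 15 arrays, Myog being the exception. Member probes made up 0.832% and 0.688% of the summed background-corrected signal of these arrays, against 0.00916% to 0.0876% on the other 15. Between 3 and 24 members were detected on the other arrays, with the fewest on day 2 PBS replicate 2 and the most on day 10 responder replicate 1. In bulk tumour RNA, more muscle cells and more muscle RNA per cell cannot be told apart.

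**Figure D1:**
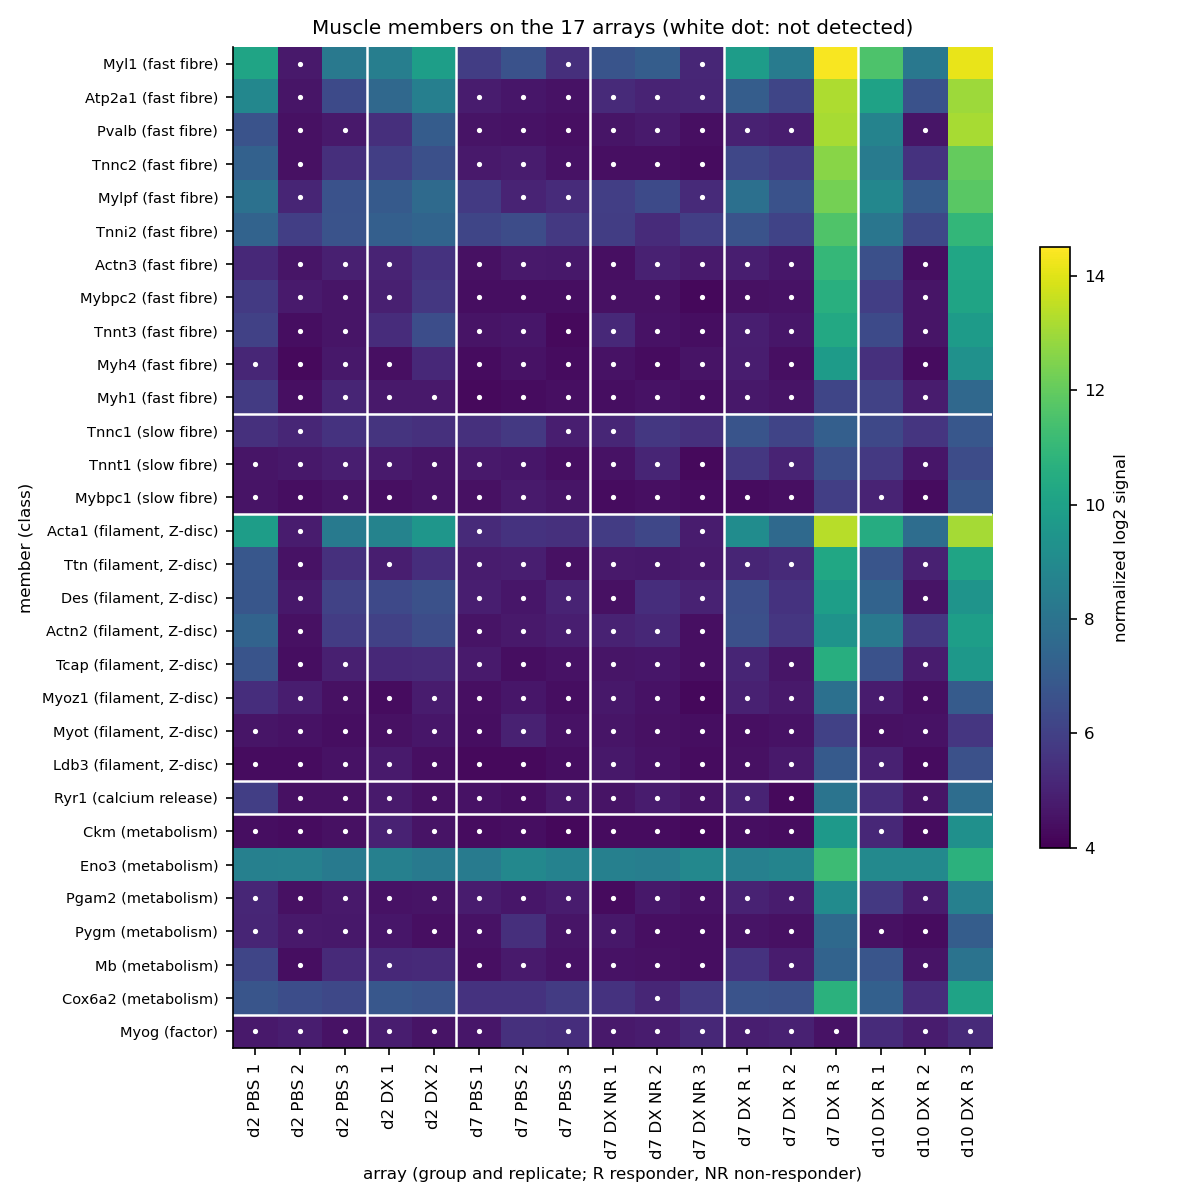
Heat map of the 30 members (rows, by class) on the 17 arrays (columns, by group); colour is the normalized log2 signal and a white dot marks a probe not detected. The columns of day 7 responder replicate 3 and day 10 responder replicate 3 hold the brightest cells in 29 of 30 rows.

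In the thick filament, Myl1, the fast essential myosin light chain, stood at 9.82, 8.37 and 14.38 in the day 7 responders and at 11.57, 8.20 and 14.16 in the day 10 responders. It reached 10.15, 4.71 and 8.26 in day 2 PBS tumours, 8.48 and 9.87 in day 2 DX tumours, 5.90, 6.63 and 5.41 in day 7 PBS tumours and 6.75, 7.08 and 5.15 in non-responders. All 3 day 7 responders lay above every day 7 PBS and non-responder tumour, while the day 2 tumours overlapped the responders. These are values of the brightest Myl1 probe. Its other probes were detected on only 3 and 2 arrays, among day 7 responders on replicate 3 alone, and could not check this separation. The partner of Myl1, the fast regulatory light chain Mylpf, stood at 7.87, 6.63 and 12.30 in day 7 responders and 8.86, 6.98 and 11.83 in day 10 responders, and between 5.06 and 7.91 elsewhere.

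The heavy chains behaved differently from each other. Myh4 was detected on only 4 arrays, at 9.75 and 9.30 on the 2 bright arrays, 5.46 on day 10 responder replicate 1 and 5.22 on day 2 DX replicate 2. Myh1, whose promoter next to that of Myh4 is printed above, was also detected on 4 arrays: at 6.19 on day 7 responder replicate 3, 7.54 on day 10 responder replicate 3, 6.07 on day 10 responder replicate 1 and 5.83 on day 2 PBS replicate 1. Thus day 10 responder replicate 1 had a Myh1 level close to that of day 7 responder replicate 3 while its Myh4 level was lower by 4.29 on the log2 scale.

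In the thin filament, Acta1 followed Myl1. It stood at 9.11, 7.60 and 13.39 in day 7 responders and 10.51, 7.75 and 13.10 in day 10 responders. Levels were 9.85, 4.78 and 8.27 in day 2 PBS tumours, 8.70 and 9.51 in day 2 DX tumours, 5.27, 5.55 and 5.46 in day 7 PBS tumours, and 5.88, 6.24 and 4.79 in non-responders. Responders were again all above day 7 PBS tumours and non-responders, and the day 2 groups spanned both. Tnnc2, the fast troponin C that binds calcium, was detected on 10 arrays: all 6 responders (6.23, 5.92 and 12.64 on day 7, then 8.37, 5.52 and 12.01 on day 10) and 4 of the 5 day 2 tumours (5.42 to 7.27). Tnni2, the fast inhibitory troponin, was one of 2 members detected on all 17 arrays, at 11.59 and 10.94 on the bright arrays and 5.28 to 8.12 on the others. Tnnt3, the fast troponin that anchors the complex to tropomyosin, was detected on 6 arrays, at 10.35 and 9.78 on the bright ones and 5.34 to 6.49 on the other 4.

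Among the shared structural genes, titin (Ttn), the molecular spring of the sarcomere, had 12 probes of which 2 were detected on at least 2 arrays. The brighter one stood at 10.26 and 10.14 on the bright arrays and was detected on 4 others, from 5.37 to 6.84, in day 2 tumours and day 10 responder replicate 1. Desmin (Des), the intermediate filament that ties Z-discs together, was detected on 10 arrays and reached 9.88 and 9.42. Tcap, which caps titin at the Z-disc, reached 10.59 and 9.62 and was detected on 4 other arrays. Myot and Ldb3, both Z-disc proteins, were detected on the bright arrays only, as were Ckm and Mybpc1. These 4 passed the filter through those 2 arrays alone, and were undetected in the other responders as in all remaining tumours.

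Calcium handling and metabolism separated the tumours further. Atp2a1, the calcium pump of fast fibres, was detected on 10 arrays: 7.11, 6.21 and 13.21 in day 7 responders, 10.06, 6.64 and 12.95 in day 10 responders, and 6.36 to 8.87 in 4 of 5 day 2 tumours. Pvalb, the calcium buffer of fast fibres, stood at 13.12 and 13.13 on the bright arrays, at 8.68 on day 10 responder replicate 1 and at 5.42 to 7.05 on 3 day 2 arrays. It was not detected on the other 11, which included day 7 responders 1 and 2, where Myl1 and Acta1 were detected. Ckm, the muscle creatine kinase that buffers ATP, stood at 9.63 and 9.25 on the bright arrays and between 4.22 and 5.18, undetected, on the other 15. The oxygen store myoglobin (Mb) was detected on 7 arrays, highest at 8.01 on day 10 responder replicate 3, then 7.33 on day 7 responder replicate 3 and 6.78 on day 10 responder replicate 1. Eno3, the muscle enolase, was detected on all 17 arrays: at 11.20 and 10.73 on the bright ones and at 8.32 to 8.94 on the other 15, whatever the level of the other members there.

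Only a few other transcripts stood out in the same way. Counting features at least 2 log2 units above all other 15 arrays on both bright arrays gave 40 of 12451 features (0.321%). Of these, 17 were members, 15 came from the 36 tested genes of a second list of mature muscle genes (such as Ampd1, Cmya5 and Myom2) and 2 from the 7 tested genes of developing muscle (Actc1 and Myf6). The remaining 6 were Rpl3l, Ppp1r3c, Ky, Igf2, Trim72 and a probe with no symbol, named here after their values were seen. Both arrays also carried epidermal signal, given with its values further below.

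Day 7 responders were compared with day 7 PBS tumours to ask whether muscle transcripts differ between tumours that shrank and vehicle tumours. None of the 30 members was called by limma at a Benjamini-Hochberg adjusted p under 0.05, where 0.426% of all features were called higher and 0.104% lower. At an unadjusted p under 0.05, 11 of 30 members were higher (8.21% of all features) and 0 lower (5.61%). In 18 of 30, every responder array lay above every PBS array (11.2% of all features): 8 of 11 fast, 2 of 3 slow, 6 of 8 filament and Z-disc, and 2 of 6 metabolism genes. Among these 18, Pvalb, Mybpc2, Tnnt3, Myh1, Ttn, Myoz1 and Ldb3 were detected in responder replicate 3 only, and in no PBS tumour. For them responders 1 and 2 lay above PBS tumours only as undetected signals, such as 4.65 against 4.64 for Tnnt3. In 0 of 30, every responder array lay below (7.98%). The median log2 difference of the members was 1.98, or 1.36 over the 26 with a measured value or a bound when genes undetected in PBS tumours were placed at their bound, against 0.01 over all features.

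Tnnc1 came nearest to the threshold although its difference was small. Its levels were 6.73, 6.17 and 7.19 in responders and 5.45, 5.74 and 4.90 in PBS tumours, with 2 of the 3 PBS arrays detected. The groups did not overlap, and the responder mean was 6.70 ± 0.51 (SD, n = 3) against 5.36 ± 0.43 (SD, n = 3), a difference of 1.34 ± 0.31 (SE, limma, adjusted p = 0.057). The size of this difference depended on the background correction: it was 0.49 without one, 0.50 in the authors' processed values and 0.88 with an offset of 50, and its adjusted p was 0.0547 to 0.581 over 13 alternatives. Acta1 differed by 4.61 ± 1.33 (24.4-fold, limma adjusted p = 0.13) and Myl1 by 4.88 ± 1.45 (29.4-fold, limma adjusted p = 0.145), larger differences with a far larger spread, since responder replicate 3 lay more than 4 log2 units above the other responders. Mylpf differed by 3.56 ± 1.14 (limma adjusted p = 0.182). Atp2a1 and Tnnc2 were detected on no PBS array, and the responder means were at least 11.2-fold and at least 7.47-fold higher (limma adjusted p = 0.22 and 0.273). These bounds hold for the means and not for each tumour. Replicate 3 stood at 13.21 and 12.64, and responders 1 and 2 at 7.11 and 6.21 for Atp2a1 and 6.23 and 5.92 for Tnnc2. Tnnt1 was detected in 2 of 3 responders and in no PBS tumour. Its responder mean was at least 1.32-fold higher (limma adjusted p = 0.193), and its fitted log2 difference of 1.16 was 0.35 without background correction.

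Day 7 responder replicate 3 sets much of these sizes. Without it the median difference of the members was 0.28 in place of 1.98, that of Acta1 2.93 in place of 4.61, that of Myl1 3.12 in place of 4.88 and that of Tnnc1 1.09 in place of 1.34. With the replicate 3 arrays of both responder groups left out, Tnnc1 differed by 1.09 ± 0.29 (limma adjusted p = 0.159) and Acta1 by 2.93 ± 1.00 (limma adjusted p = 0.268), and no feature of 12451 was called. Only BeadChip 3 held responder and PBS arrays together, 1 of each: there Acta1 differed by 3.85, Myl1 by 3.92 and Tnnc1 by 1.29, 29 of 30 members were higher in the responder and the median was 0.47, with no replicate. Both bright arrays were hybridised on BeadChip 1, as were 4 further arrays (day 10 responder replicate 1, day 7 responder replicate 2, non-responder replicate 2 and day 2 DX replicate 1), on which 29 of the 30 members were lower than on both.

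Responders and non-responders of day 7 received the same drug and differ in tumour course. No feature was called in this comparison (limma, 0% in each direction, smallest adjusted p of any member 0.687). At an unadjusted p under 0.05, 13 of 30 members were higher (2.96% of features) and 0 lower (2.75%), and in 16 of 30 every responder lay above every non-responder (5.51% of features) and in 0 below (5.42%). Among these 16, Pvalb, Myh1, Ttn, Myoz1 and Pgam2 were detected in responder replicate 3 only, and in no non-responder. Acta1 differed by 4.39 ± 1.33 and Myl1 by 4.53 ± 1.45 (limma adjusted p = 0.712 for each), and Tnnc1 by 1.28 ± 0.31 (limma adjusted p = 0.687). The median member difference was 1.91, and 0.35 without responder replicate 3. On BeadChip 1, which held 2 responders and 1 non-responder, the median was 2.50 and Acta1 differed by 4.25. Responder replicate 3 was 1 of those 2 responders, so these values also rest on it. These differences share their responder arrays with the comparison against PBS tumours.

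Non-responders and day 7 PBS tumours both had low muscle signal. None of the 30 members was called by limma (0.104% of features were called higher and 0.0241% lower), and 0 reached an unadjusted p under 0.05 (6.59% of features higher, 4.18% lower). All 3 non-responders lay above all PBS tumours for 1 member, Atp2a1 (8.45% of features), and below for 2, Tnnc2 and Mybpc1 (6.28%), each undetected in both groups. The median difference was 0.02, Acta1 differed by 0.22 ± 1.33 (limma adjusted p = 0.97) and Tnnc1 by 0.05 ± 0.31 (limma adjusted p = 0.968). The standard error of Acta1 is large enough that a several-fold difference in either direction would not have been detectable.

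On day 2, muscle transcripts were present in both groups. DX and PBS tumours had no member called by limma (0.53% of features higher, 0.0803% lower) and 0 at an unadjusted p under 0.05 (3.38% higher, 3.53% lower), with a median difference of 0.17, which turned to -0.24 with BeadChip as a fixed block. Both DX arrays lay above all PBS arrays for 1 member, Ckm (12.2% of features), and below for 1, Pygm (15.9%), both undetected in these groups. Acta1 differed by 1.47 ± 1.49 (limma adjusted p = 0.999), and this depended on day 2 PBS replicate 2, the tumour with the least muscle signal: without it the difference was 0.04. Within BeadChip 3, which held that array, another PBS array and 1 DX array, Acta1 differed by 2.99.

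Over time, PBS tumours of day 7 had a lower mean than those of day 2 in 25 of 30 members, with a median of -0.51. Over all features 6537 of 12451 were lower, with a median of -0.02. Only 12 of the 30 members had a measured value or a bound, with a median of -0.53, and the other signs come from undetected signals or bounds under 1. By limma 0 members were called (0.321% of features higher, 0.313% lower) and 0 passed an unadjusted p under 0.05 (6.91% higher, 7.57% lower). Acta1 differed by -2.21 ± 1.33 (limma adjusted p = 0.47), and by -1.10 without day 2 PBS replicate 1. Mybpc2 (fast myosin binding protein C), Myh1 and Cox6a2 (the muscle subunit of cytochrome oxidase) were lower on all 3 day 7 arrays than on all 3 day 2 arrays, that is 3 of 30 members against 12.1% of features, and 0 were higher on all (10.5%). Of these PBS arrays, Mybpc2 and Myh1 were detected on day 2 replicate 1 only. Their groups were thus parted by undetected signals, 4.59 against 4.40 for Mybpc2 and 4.44 against 4.43 for Myh1. Between day 10 and day 7 responders no member was called (0% of features higher, 0.00803% lower) and 0 passed an unadjusted p under 0.05 (1.62% higher, 2.3% lower). The groups overlapped in all 30 members (2.79% of features were above on all arrays and 4.44% below). Acta1 differed by 0.42 ± 1.33 and Myh1 by 0.99 ± 0.52 (limma adjusted p = 1 for each).

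Members differed widely between tumours of the same group. A range of at least 2 log2 units between the highest and lowest array was found for 24 of 30 members in day 7 responders (1.04% of all features) and for 25 of 30 in day 10 responders (0.9%). In day 2 PBS tumours 10 of 30 had such a range (0.281%), against 0 of 30 in day 2 DX tumours (0.00803%), day 7 PBS tumours (0.0964%) and non-responders (0.394%). Median ranges of the members were 4.32 and 4.73 log2 units in the responder groups and 1.29 in day 2 PBS tumours, against 0.37, 0.44 and 0.30 over all features. Pvalb had the widest range in both responder groups (8.30 and 8.53), and Myl1 in day 2 PBS tumours (5.44). Of the 20 features with the widest range, 11 were members in day 7 responders, 13 in day 10 responders and 6 in day 2 PBS tumours. Since the members were listed with earlier results of these data known, these counts are descriptions.

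**Figure D2:**
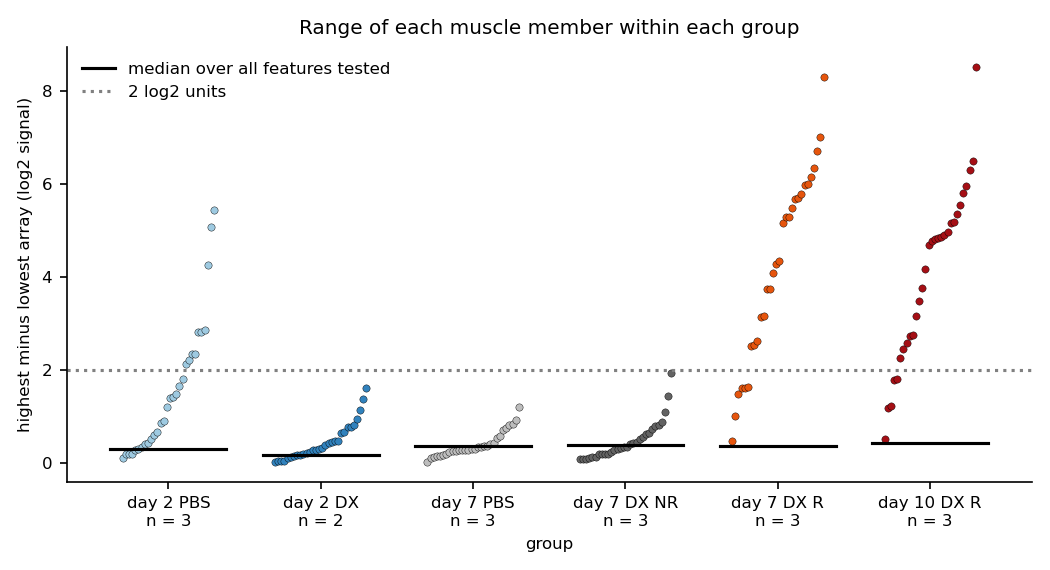
Range of each of the 30 members (points) within each of the 6 groups, as highest minus lowest array in log2 signal; the bar is the median range over all features tested and the dotted line marks 2 log2 units. The points climb past 8 in both responder groups (Pvalb at 8.30 and 8.53) and stay under 2 in day 2 DX, day 7 PBS and non-responder tumours.

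Fast and slow genes were set side by side on the bright arrays by their distance from the mean of the 3 day 7 PBS arrays, a difference between arrays for the same probe. The median distance of the 11 fast members was 6.37 log2 units on day 7 responder replicate 3 and 5.74 on day 10 responder replicate 3, and that of the 3 slow members was 1.83 and 1.84. The 4 undetected slow genes have no value, and in most pairs the PBS arrays were undetected, so distances there are measured from background. In each of the 5 paralogue pairs with both genes measured, the fast gene lay further above the PBS tumours on both arrays. This was read from the brightest probe of each gene, and it did not hold for every probe of the actinins. Fast Tnnc2 lay higher by 7.97 and 7.34 and slow Tnnc1, detected in 2 of the 3 PBS tumours, by 1.83 and 1.49. For troponin T the distances were 5.85 and 5.28 (fast Tnnt3) against 1.93 and 1.84 (slow Tnnt1). For myosin binding protein C they were 6.23 and 5.74 (fast Mybpc2) against 1.32 and 2.18 (slow Mybpc1). The gap was smaller for the Z-disc actinins, with 6.37 and 5.60 for fast Actn3 against 4.68 and 5.15 for Actn2, which both fibre types use. Another Actn3 probe reached only 7.18 and 5.97 from 4.32 to 4.49 in the PBS tumours, a smaller distance than these of Actn2. A dimmer Actn2 probe reached 7.45 and 7.94 from 4.30 to 4.63. The gap was largest for the calcium pumps, with 8.57 and 8.31 for fast Atp2a1 against 0.21 and 0.17 for Atp2a2. Atp2a2, the pump of slow fibres that many other cells also use, was detected on all 17 arrays and is no member.

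Day 10 responder replicate 1 held the next highest level of 21 of the 29 members that stood above, and the members did not lie below day 7 responder replicate 3 by a common amount. The 11 fast members were lower by a median of 3.97 log2 units, with a range from 0.12 (Myh1) to 4.69 (Mybpc2). The 2 slow members detected on both were lower by 0.90 (Tnnc1) and 0.78 (Tnnt1), myoglobin by 0.55 and Actn2 by 1.16. On day 7 responder replicate 3, Tnnc1 and Tnnt1 stood only 1.83 and 1.93 above the day 7 PBS mean. A drop as large as the fast median could therefore not have shown in these 2 genes. This array also had the highest signal of the fat cell marker Adipoq (6.75), detected on 4 arrays, none of them a bright one. Of 6 fat cell markers with a probe, Adipoq was the only 1 detected on at least 2 arrays. Whether its signal bears on the muscle profile was not tested.

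The 2 bright arrays also differed from each other. From day 7 to day 10 replicate 3, 24 of the 29 members detected on both were lower and 5 higher, against a median of 0.01 over 10064 features detected on both. The fast members had a median difference of -0.48 and the metabolic ones of -0.48. Against this, Myh1 was higher on the day 10 array by 1.35, Mybpc1 by 0.86, Mb by 0.69 and Actn2 by 0.48, while the difference was -0.97 for Tcap, -0.88 for Myoz1 and -0.77 for Actn3. Second probes gave the same sign for Mybpc1 (6.68 against 5.59), Actn2 (7.94 against 7.45), Tcap (7.54 against 8.46) and Actn3 (8.51 against 9.52). For Ldb3 the probes disagreed: the brighter one was lower on the day 10 array (6.61 against 6.99) and the other higher (5.92 against 5.49). The Ttn probes disagreed too, the brighter being lower (10.14 against 10.26) and the other higher (9.46 against 9.27). The second probes of Myh1 and Mb were detected on no array, so the differences of these genes could not be checked by another probe. These are single arrays with no replicate check.

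**Figure D3:**
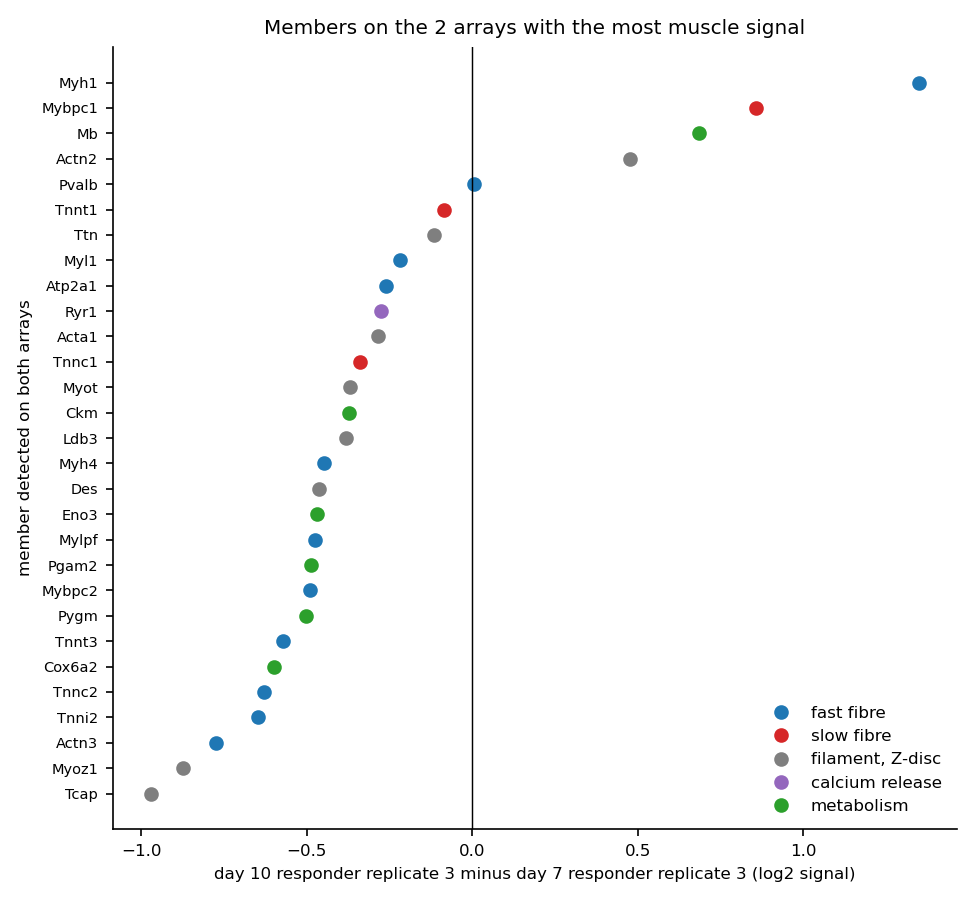
Log2 signal of day 10 responder replicate 3 minus day 7 responder replicate 3 for the 29 members detected on both, coloured by class. Myh1, Mybpc1, Mb and Actn2 lie to the right (0.48 to 1.35) and Tcap, Myoz1 and Actn3 at the left end (-0.97 to -0.77).

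Tumours with an intermediate muscle signal differed in which members carried it. Day 2 PBS replicate 1 and day 7 responder replicate 1 had similar Myl1 (10.15 and 9.82), Mylpf (7.91 and 7.87) and Eno3 (8.56 and 8.57) levels. Of the 11 fast members, 5 were detected in both tumours and all 5 were lower in the responder tumour, with a difference of -1.75 for Atp2a1 and -1.04 for Tnnc2. The other 6 (Pvalb, Actn3, Mybpc2, Tnnt3, Myh4 and Myh1) were undetected in the responder tumour, and all but Myh4 were detected in the day 2 tumour, Pvalb at 6.68. The shared Ttn stood at 6.84 in the day 2 tumour and was undetected in the responder tumour. The slow troponins went the other way: Tnnc1 was higher in the responder tumour by 1.26, and Tnnt1 stood at 5.72 there and was undetected in the day 2 tumour. The median difference over all features was 0.01, and 0.996% of features were higher by at least 1 log2 unit. Day 2 tumours as a whole had Tnnc1 at 5.11 to 5.57 whatever their Acta1 level, and Tnnt1 was detected in none of the 5. In contrast Tnnc1 stood at 6.17 or more in 5 of the 6 responders, the exception being day 10 responder replicate 2 at 5.63. The pair of arrays was chosen after their values were seen, and the contrast is between 2 tumours.

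Genes of developing or regenerating muscle, which are not members, were read on the same arrays. Of 15 such genes, 13 had a probe and 7 were detected on at least 2 arrays and tested. The perinatal myosin Myh8 was detected in all 6 responders (6.16, 6.07 and 8.88 on day 7 and 8.75, 6.53 and 10.06 on day 10) and in 1 of the other 11 tumours, where levels were 4.29 to 5.35. In the day 2 tumours with Acta1 at 8.27 to 9.85, Myh8 was at 4.53 to 5.35. On no day 7 PBS or non-responder array was Myh8 detected. The day 7 responder mean was at least 3.19-fold higher than PBS tumours (limma adjusted p = 0.105) and at least 3.38-fold higher than non-responders (limma adjusted p = 0.687). The embryonic light chain Myl4 differed by 2.09 (limma adjusted p = 0.0944) and 1.60 (limma adjusted p = 0.728). The cardiac and fetal actin Actc1 and Chrng, the fetal subunit of the acetylcholine receptor, were each detected in 4 of 6 responders and in 0 of the other 11 tumours. Chrna1 was detected in all 6 responders and 8 of the other 11. Ncam1 did not follow the muscle signal: it was detected on all 17 arrays, at 6.07 and 5.89 on the bright ones and 6.33 to 6.69 in day 2 tumours. None of the 7 was called, all 7 were higher in responders than in PBS tumours (median 1.21), and Myh8 and Myl4 were singled out after their values were seen.

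**Figure D4:**
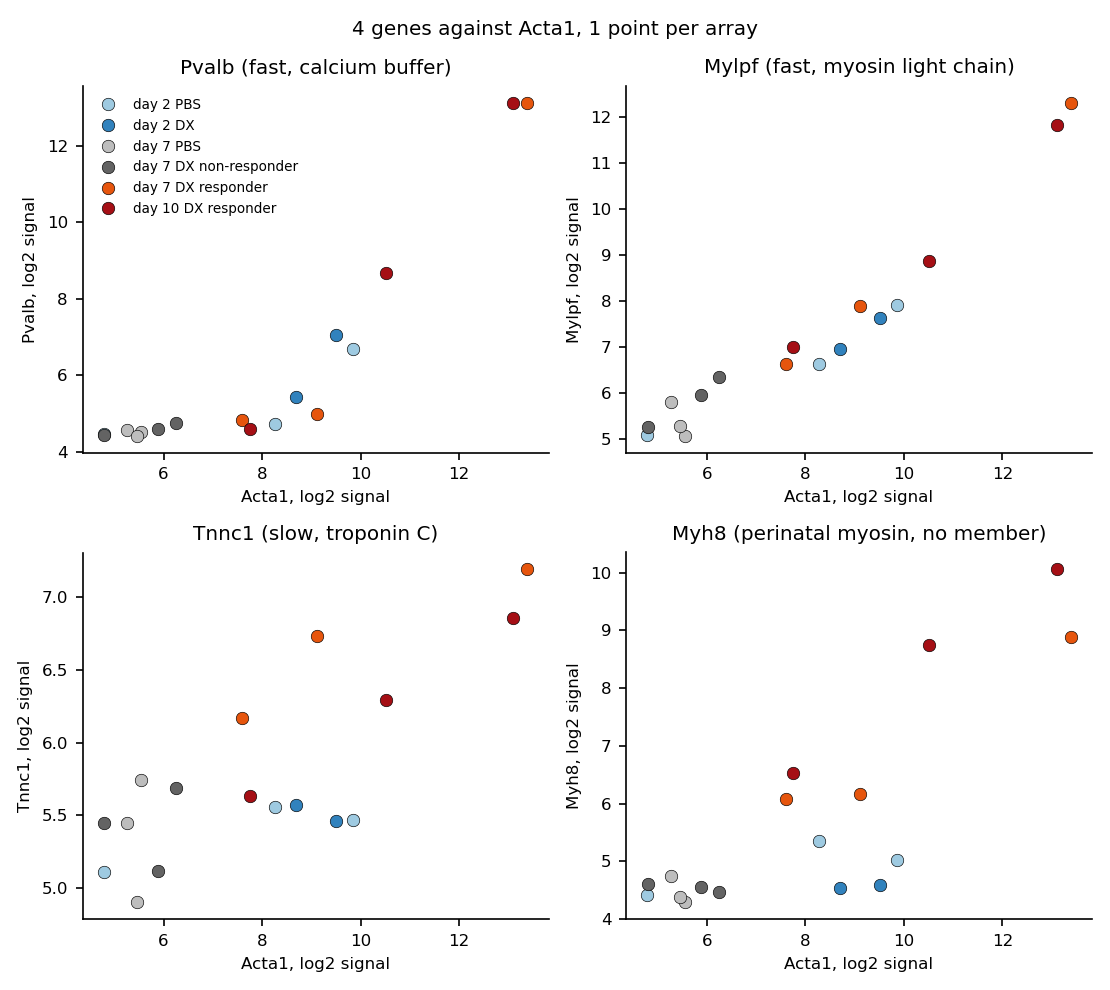
Log2 signal of Pvalb, Mylpf, Tnnc1 and Myh8 (vertical axes) against that of Acta1 (horizontal axis), 1 point per array, coloured by group. Mylpf is highest on the arrays with the highest Acta1, though not in strict order. Day 2 PBS replicate 3 has Acta1 at 8.27 and Mylpf at 6.63, day 10 responder replicate 2 has 7.75 and 6.98. Day 7 responder replicate 1 (Acta1 9.11) has Tnnc1 at 6.73 and Myh8 at 6.16, above all 5 day 2 arrays (blue, at most 5.57 and 5.35), and Pvalb undetected at 4.97.

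Markers of other tissues were read on the same arrays. Of 9 epidermal markers with a probe, 6 were tested, and all 6 were detected on day 7 responder replicate 3 and 5 on day 10 responder replicate 3. The summed linear signal of the 6 was 635 to 10993 in day 7 responders and 1429 to 4539 in day 10 responders, against 490 to 691 in day 7 PBS tumours, 576 to 5980 in non-responders, 532 to 3272 in day 2 PBS tumours and 517 to 692 in day 2 DX tumours. The basal keratin Krt14 stood at 12.92 and 11.72 on the bright arrays, but also at 12.11 on the array of non-responder 2 and at 10.22 on that of the third day 2 PBS tumour, where Acta1 was 6.24 and 8.27. Lor, a protein of the cornified layer, was detected on 7 arrays. Thus epidermal and muscle signal were high together on the bright arrays and apart on others, and the part of epidermal tissue in the muscle result was not tested. The 7 fibroblast and fibrosarcoma markers were detected on all 17 arrays, with a median log2 difference from day 7 PBS tumours of -0.29 and -0.36 on the bright arrays. On the other arrays this median ran from -0.44 (day 7 responder replicate 2) to 0.23 (day 2 DX replicate 2), so the lowest value was not on a bright array. The 3 smooth muscle genes tested had medians of -0.31 to 0.36 over the 17 arrays, and no gene of these lists was called in any of the 6 comparisons.

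**Figure D5:**
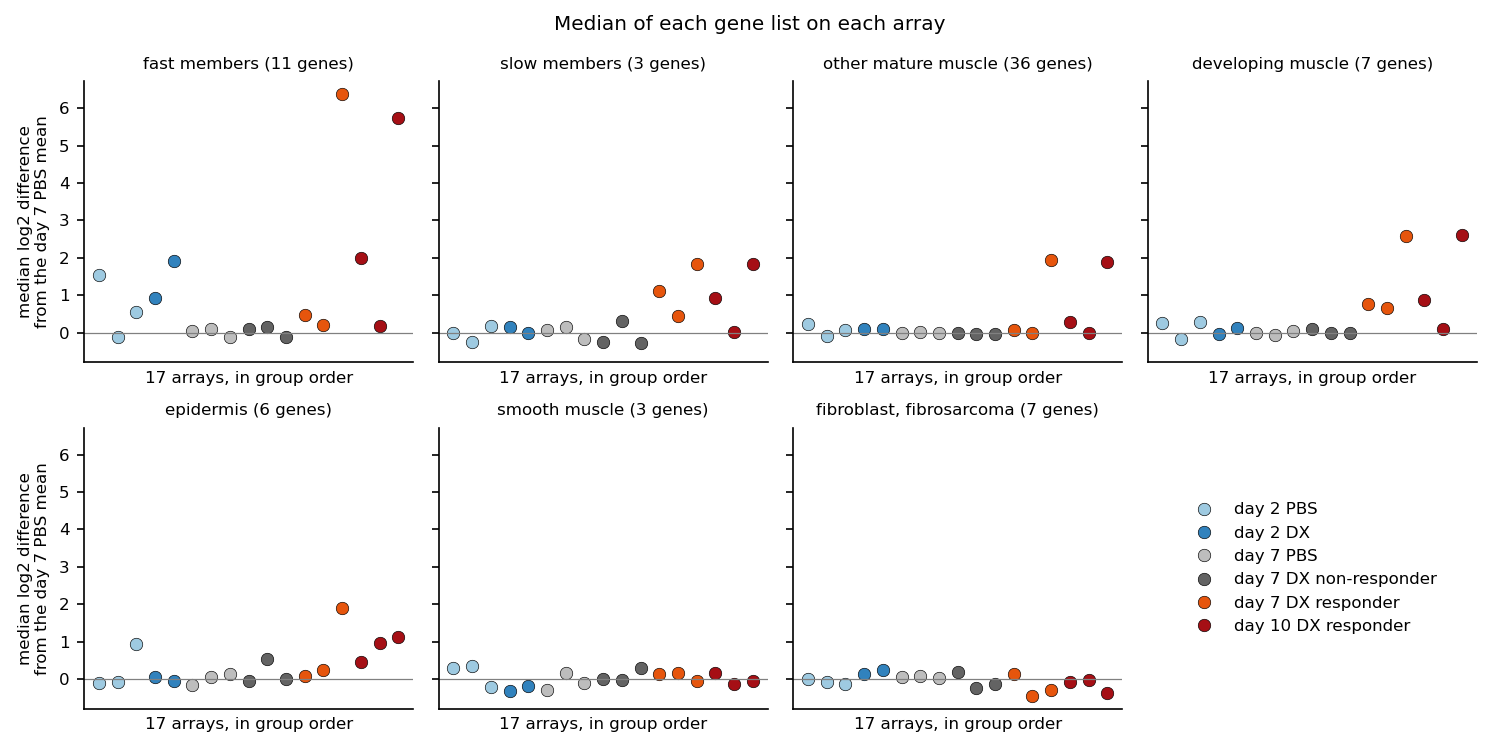
Median log2 difference from the mean of the day 7 PBS arrays for 7 gene lists on each of the 17 arrays, in group order and coloured by group. The fast members reach 6.37 and 5.74 on the replicate 3 responder arrays, where the slow members reach 1.83 and 1.84 and the smooth muscle and fibroblast lists stay near or below 0.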

How the data were processed

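Per the file headers, the authors deposited 1 linear signal intensity and 1 detection p-value per probe and array, before normalization. The submitters' processing notes name GenomeStudio 2011.1, with no settings. The formula behind the detection p-value is not stated in the labels or headers. A second deposited table of processed intensity values served as an alternative. Here neqc corrected the background and quantile-normalized the intensities (limma 3.58.1, R 4.3.3, offset 16, negative controls inferred from the detection p-values), which pulls fold changes of dim probes towards 1. Symbols came from the platform annotation: 34885 of 45281 probes had 1 symbol, 18 several and 10378 none. Probes detected (p under 0.01) on at least 2 arrays were kept, each gene by its brightest, giving 12451 features; 13728 to 15568 probes were detected per array, and the number of arrays limits the precision.

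All 17 arrays entered 1 limma fit of 6 group means with a trend (11 residual and 6.98 prior degrees of freedom) for 6 comparisons, called at a Benjamini-Hochberg adjusted p under 0.05. A fold against a group with no detected array is a bound, taken against the mean over its arrays of whichever was higher, the signal of the probe or the lowest detected signal, and none is given where that bound is under 1 or neither group was detected. Sample titles gave groups and replicate numbers, and the array positions in the labels gave BeadChips. Named were all members by detection, then Acta1, Myl1, Ttn, Ckm, Pvalb, the slow members and the pairs' fast members by value; others were named after their values were seen. The members, lists and tests were chosen with earlier results of these data known. The fit was tested on simulated data. Alternatives covered normalization, filter, BeadChip, replicate number, array weights and leaving out arrays.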

Additional observations from a re-analysis of the deposited data

Results flagged for a closer look

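The fast troponin C gene Tnnc2 was singled out because the day 7 responders and non-responders moved in opposite directions from the same PBS tumours. All 3 responders (6.23, 5.92 and 12.64) lay above the 3 PBS tumours, by a mean of 3.59 on the log2 scale, and all 3 non-responders (4.42, 4.41 and 4.33) lay below them (4.71, 4.78 and 4.52), by a mean of -0.28. The probe was detected on none of the non-responder or PBS arrays, so the lower side is a difference between undetected signals. The opposite movement as such was not tested; the direct comparison of responders with non-responders gave a limma adjusted p of 0.788.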

How the results depend on the processing

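No member was called in any comparison under any alternative run; for day 7 responders against PBS tumours the smallest adjusted p of a member was 0.0547 to 0.581 over 13 alternatives and 0.11 to 0.235 when single arrays were left out. A block for the replicate number gave 0 members called and a smallest limma adjusted p of 0.0713, with 0 features called instead of 66. The labels do not say whether these numbers pair the samples. Same-numbered deviations correlated with r from -0.22 to 0.54 and different-numbered ones with r from -0.42 to 0.40, which does not settle it. Leaving out both replicate 3 responder arrays was added after seeing the data and gave medians of 0.28 and 0.35 for responders against PBS tumours and non-responders.

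Calls over all features for responders against PBS tumours ranged from 0 to 91 over the alternatives and 0 to 78 with single arrays left out. The day 2 PBS count of members with a range of 2 log2 units was 10, but 3 without background correction, 4 with offset 50 and 3 in the authors' processed values. The day 2 median of DX against PBS tumours (0.17) ranged from -0.24 (BeadChip as a fixed block) to 0.61 (replicate block). The non-responder median against PBS tumours (0.02) became -0.12 with scaling to the 75th percentile, -0.42 with BeadChip as a fixed block and -0.11 with it as a random block; Acta1 there (0.22) became -0.43 with the fixed block and ranged from -0.084 to 0.64 when single arrays were left out. With single arrays left out, Acta1 between day 10 and day 7 responders ranged from -0.91 to 2.10, and medians of the members ranged from 0.28 to 2.93 (responders against PBS tumours), 0.35 to 2.88 (responders against non-responders), -0.04 to 0.05 (non-responders against PBS tumours), -0.0016 to 0.38 (day 2), -0.98 to 1.61 (day 10 against day 7) and -0.80 to -0.16 (PBS over time). The causes were not tested. The median distance of fast members from day 7 PBS tumours exceeded that of slow members by 3.48 to 4.54 and by 2.90 to 3.90 log2 units on day 7 and day 10 responder replicate 3 under 5 alternatives. Undetected probes limit the slow genes most.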

Other observations

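Among the features that stood out with the members on both replicate 3 responder arrays were several with known muscle roles that no list held. Rpl3l, a muscle-specific ribosomal protein, stood at 10.20 and 9.51 against at most 6.11 on the other 15 arrays. Ky, a protein named for a mouse with kyphoscoliosis, stood at 9.22 and 8.39 against at most 5.33, and Trim72, a membrane repair protein of muscle, at 8.79 and 8.63 against at most 6.37. Ppp1r3c, a glycogen-targeting subunit of a protein phosphatase, stood at 8.62 and 8.78 against at most 5.44. The growth factor gene Igf2 stood at 9.36 and 9.17 against at most 6.88. All 5 were named after their values were seen, and none was called between day 7 responders and PBS tumours (limma adjusted p from 0.194 for Igf2 to 0.52 for Rpl3l).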
